A study of Homo sapiens with 2 samples.

Results

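Keratins are the intermediate filament proteins of epithelial cells. Each filament is built from pairs of an acidic type I keratin and a basic type II keratin, and the pair in use marks the kind of epithelium. Simple epithelia such as the lining of the colon are known for KRT8 paired with KRT18, KRT19 and KRT20, whereas KRT5 with KRT14 marks basal cells of stratified epithelium and KRT1 with KRT10 its differentiating layers. The 10 epithelial keratins considered here were KRT7, KRT8, KRT10, KRT15, KRT17, KRT18, KRT19, KRT20, KRT23 and KRT80. They were chosen by gene symbol with earlier results of these arrays known, so their differences between the arrays are given as a description. Of the 10 genes, 7 had a probe named in the platform annotation, among 45 keratins and 17687 genes named in all. KRT15, KRT17 and KRT20 were not analysed here.

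The cells were SW48, an established human colorectal cancer line. The siYY1 array held RNA from cells given a single small interfering RNA (siRNA) against YY1, a DNA-binding zinc finger protein that acts as an activator at some genes and a repressor at others. The siControl array held RNA from cells given a negative control siRNA. Both siRNAs were used at 5 nmol/L with the same lipid reagent, and RNA was taken after 3 days of culture. There was 1 array per group and no replicate error, so no difference below was tested and precision is limited by the number of arrays. The level of YY1 was not analysed here, so the knockdown was not checked. All values are the deposited values taken as log2, and each difference is siYY1 minus siControl. Levels of different genes were measured by different probes and are not ranked against each other.

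Of the 9 colon epithelium markers with a named probe, 7 were above the filter on dim genes. This filter kept the 8844 genes whose mean over both arrays reached 7.54, the median of all named genes. The 7 were EPCAM, CDH1, CDH17, CDX2 and the keratins KRT8, KRT18 and KRT19, which are themselves among the members described here. The adhesion gene EPCAM was at 16.24 in siYY1 and 16.04 in siControl, and the intestinal transcription factor gene CDX2 was at 12.06 in siYY1 and 11.91 in siControl. The brush border gene VIL1 (5.68 in siYY1, 6.04 in siControl) and the surface antigen gene GPA33 (5.55 in siYY1, 5.26 in siControl) did not pass the filter. In the wider lists used below, 10 of 14 measured simple epithelium markers and 22 of 29 measured transcription factor genes passed. LGALS4 (4.66 in siYY1, 4.11 in siControl) and FABP1 (3.16 in siYY1, 3.44 in siControl) were among those that did not. The transcription factor gene CDX1 (3.73 in siYY1, 4.12 in siControl) did not pass either.

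The start regions of 2 of the measured keratins, from RefSeq on GRCh38.p14, are shown because YY1 binds DNA at a known motif that can be looked for in them. They were the only measured members with a region in the source used. KRT7, KRT18, KRT19, KRT23 and KRT80 were not searched. Each runs 5′ to 3′ on the gene's strand, from 250 bases before the annotated start to 50 bases after it. Both genes lie on the minus strand, KRT8 at chr12:52926420-52926719 and KRT10 at chr17:40822565-40822864. Capitals mark a TATA box.
KRT8: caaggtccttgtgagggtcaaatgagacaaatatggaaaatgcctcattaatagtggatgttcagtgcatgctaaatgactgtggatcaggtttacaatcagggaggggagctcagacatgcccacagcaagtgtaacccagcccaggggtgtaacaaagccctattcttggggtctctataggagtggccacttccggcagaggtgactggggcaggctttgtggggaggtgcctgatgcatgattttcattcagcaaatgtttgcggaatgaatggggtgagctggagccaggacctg
KRT10: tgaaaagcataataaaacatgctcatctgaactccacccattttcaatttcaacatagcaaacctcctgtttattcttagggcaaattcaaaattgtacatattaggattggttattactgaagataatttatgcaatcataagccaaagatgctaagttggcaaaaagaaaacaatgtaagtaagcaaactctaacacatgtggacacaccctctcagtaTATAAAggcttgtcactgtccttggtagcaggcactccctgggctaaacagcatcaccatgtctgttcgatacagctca

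Searched for the TATA box letters TATAAA on both strands, the KRT10 region held a match starting 29 bases before the gene start, and the KRT8 region held none. Of 27305 such regions of the same length, 3264 held these letters. Among the keratins in the table, 20 of 34 regions held them. The letters AANATGGC, a form of the YY1 motif, were in neither sequence on either strand. They were in 6.82% of all regions, in 11.7% of the 7462 regions of genes kept and in 4 of the 34 keratin regions. With a single match, no motifs overlapped, and a match or its absence says nothing of binding. The RefSeq table gives 1 start per gene, and that of KRT8, which has several transcripts, lies within its annotated span.

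No measured epithelial keratin reached a 1.5-fold difference between the arrays, the size used in place of a test. Among the 8844 genes kept, 3.04% reached this size with the higher value in siYY1 and 3.78% with the lower value there, so 0 of 5 kept keratins past this size is close to the background. The value in siYY1 was below that in siControl for 6 of the 7 keratins, and the median difference over the 7 was -0.20. Among the 5 keratins kept, 4 lay below 0, with a median of -0.20. Among all genes kept, 49.6% lay below 0 and the median difference was 0.00. The differences of the 7 ran from -0.41 to 0.01. The SD of the differences over the genes kept was 0.32.

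**Figure D1:**
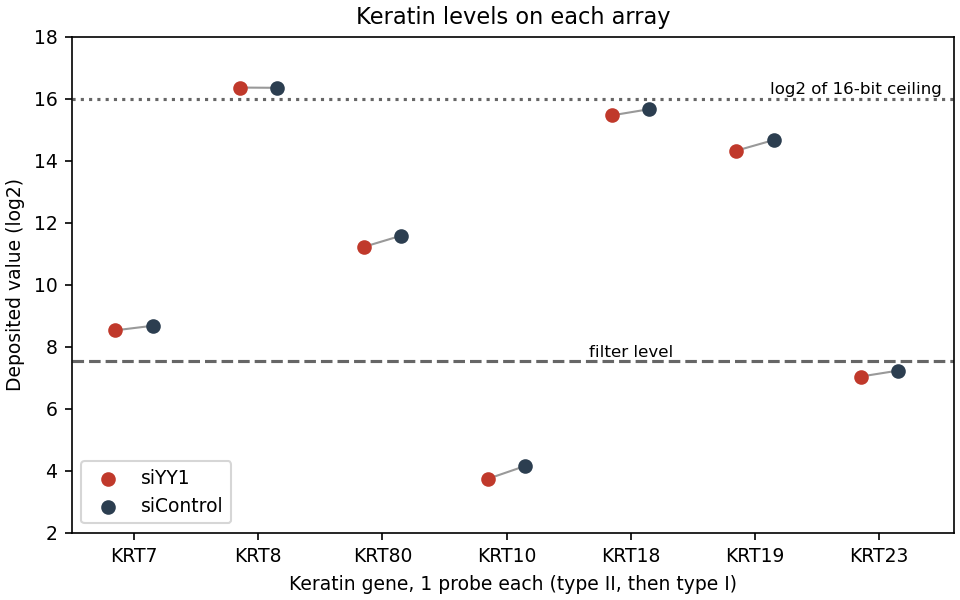
Deposited log2 values (vertical axis) of the 7 epithelial keratins with a named probe (horizontal axis, type II then type I), with 1 point per array, siYY1 left of siControl. The dotted line is 16, the log2 ceiling of a 16-bit scanner, and the dashed line the filter level of 7.54. The deposited values are summarized and are not limited to 16, with maxima of 17.97 in siYY1 and 17.90 in siControl. KRT8 lies above 16 on both arrays, and in the other 6 the siYY1 point lies below the siControl point.

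Of the type II keratins, KRT8, the general partner of simple epithelium, was at 16.36 in siYY1 and 16.35 in siControl, a difference of 0.01. Both values lay above 16. KRT7, a type II keratin of ducts and glands that is used with KRT20 to tell carcinomas apart, was at 8.53 in siYY1 and 8.68 in siControl (difference -0.15). KRT80, a type II keratin of many epithelia, was at 11.22 in siYY1 and 11.58 in siControl. Its difference of -0.36, or 1.28-fold lower, was the most negative among the 5 keratins kept, and 11.1% of the genes kept had a lower one.

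Of the type I keratins, KRT18, the usual partner of KRT8, was at 15.47 in siYY1 and 15.67 in siControl (difference -0.20). KRT19, which has almost no tail domain and pairs with KRT8 in simple epithelium, was at 14.33 in siYY1 and 14.67 in siControl. This was a difference of -0.34, or 1.27-fold lower, and 12.2% of the genes kept had a lower one. KRT23, a type I keratin, was at 7.04 in siYY1 and 7.23 in siControl (difference -0.19). KRT10, the type I keratin of differentiating epidermis, was at 3.74 in siYY1 and 4.16 in siControl. Its difference of -0.41 was the most negative of the 7. Both KRT23 and KRT10 were under the filter on each array, where signal above background is not established and the size of a difference is uncertain.

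At a looser size of 0.32 on the log2 scale, KRT10, KRT19 and KRT80 were lower in siYY1 and no keratin of the 7 was higher. Among the genes kept, 12.2% were past this size on the higher side and 13.5% on the lower side. Of the 5 kept keratins, 2 were past this size.

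KRT8, KRT18 and KRT19 were at or above 14 on both arrays, a level reached by 794 of 21448 probes in siYY1 and by 792 in siControl. Only KRT8 of the 7 was above 16, with 107 probes in siYY1 and 112 in siControl at or above this value. Bright genes differed less between the arrays than dim ones. The share of genes past 1.5-fold in either direction was 10.8% of 1635 genes from the filter level up to 9, 8.05% of 3056 from 9 up to 11 and 5.20% of 2752 from 11 up to 13. It was 2.87% of 383 genes from 14 up to 15, where KRT19 lay, and 1.74% of 172 from 15 up to 16, where KRT18 lay. Of the 73 genes with a mean of 16 or more, which included KRT8, 0 were past 1.5-fold, and the SD of their differences was 0.13. The corresponding SD was 0.38 from the filter level up to 9, where KRT7 lay. In its own range the difference of KRT19 lay under the lower quartile of -0.13, and so did that of KRT18 under its lower quartile of -0.12. KRT80 lay under the lower quartile of -0.17 for 11 up to 13. KRT7 lay above the lower quartile of its range (-0.22), as did KRT8 (-0.09). The highest deposited values were 17.97 in siYY1 and 17.90 in siControl, so KRT8 lay under the maximum on both arrays. Whether a real difference of KRT8 was flattened at its level was not tested.

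**Figure D2:**
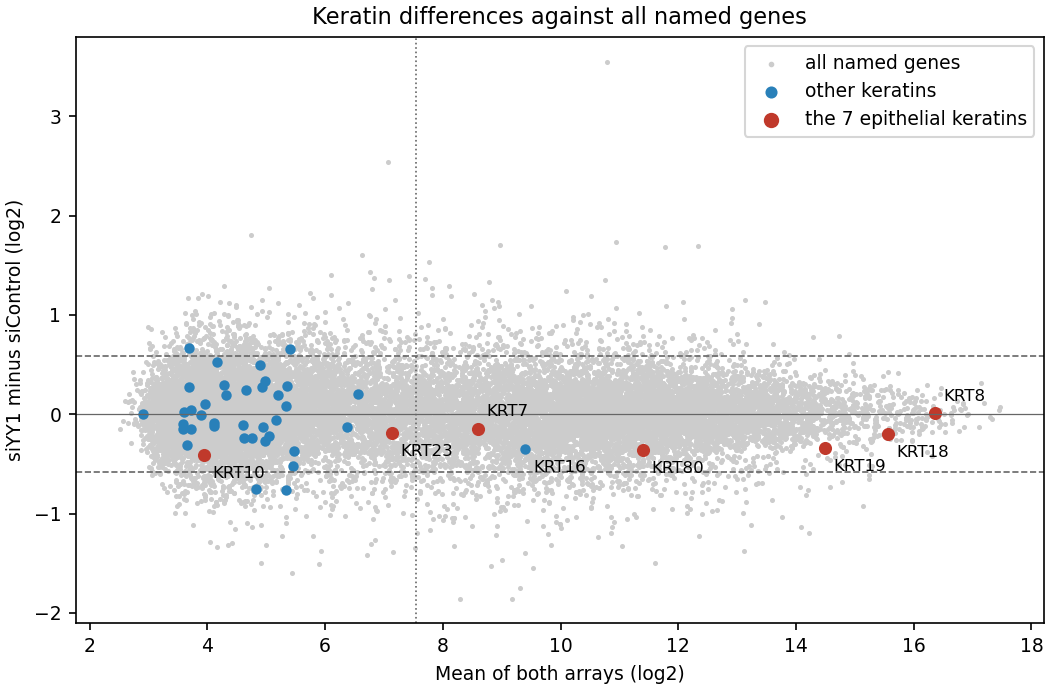
Difference between the arrays (vertical axis, siYY1 minus siControl, log2) against the mean of both arrays (horizontal axis, log2) for all named genes (grey), the 7 epithelial keratins (red) and the other keratins (blue). Dashed lines mark 1.5-fold and the dotted line the filter level of 7.54. The spread narrows at high levels, and each red point lies between the dashed lines.

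Several of these keratins have pseudogene copies. The RefSeq table lists 52 pseudogenes named for KRT8, 68 for KRT18, 5 for KRT19 and 8 for KRT17, and 0 for the other members. Whether the probes read these copies was not tested. The array had 1 named pseudogene probe, KRT18P55, at 4.76 in siYY1 and 4.43 in siControl.

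The 7 keratins were then set beside the rest of their family. Of 45 keratins with a named probe, 6 passed the filter, and these were KRT7, KRT8, KRT18, KRT19, KRT80 and, outside the list, KRT16. KRT16, a type I keratin induced in stressed and wounded epidermis, was at 9.21 in siYY1 and 9.56 in siControl (difference -0.35). Its sequence is closely similar to those of KRT14 and KRT17, and whether its probe separates them was not tested. The 6 had a median difference of -0.27. The other 37 keratins that failed the filter and were not in the list had a median difference of -0.01, with 18 above 0 and 19 below. The SD of their differences was 0.34, against 0.15 among the 7 (of which 2 also failed the filter). The differences of the 37 ran from -0.76 for KRT222 to 0.67 for KRT26, and 7 of the 37 differed by more than KRT10, while 30 did not.

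The 2 keratin clusters differed in where the bright probes lay. In the chromosome 12 cluster, RefSeq orders 27 keratin genes from KRT80 to KRT18, and 22 of them had a named probe. The 4 that passed the filter were the first pair, KRT80 and KRT7, and the last pair, KRT8 and KRT18. All 18 measured genes between these pairs were under it on both arrays. KRT18 is the only type I gene in this cluster. In the chromosome 17 cluster, with 28 keratin genes of which 23 had a named probe, KRT19 and KRT16 passed the filter. The measured neighbours of KRT19 and KRT16, the acral epidermal keratin gene KRT9 (5.29 in siYY1, 5.10 in siControl) and KRT14 (3.82 in siYY1, 3.55 in siControl), did not. Of 32 measured hair keratin-associated protein genes in the chromosome 17 cluster, 2 passed. These were KRTAP3-1 (7.99 in siYY1, 7.91 in siControl) and KRTAP2-4 (7.79 in siYY1, 7.71 in siControl). Passing the filter describes each probe. It does not establish expression and gives no order of expression between genes.

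**Figure D3:**
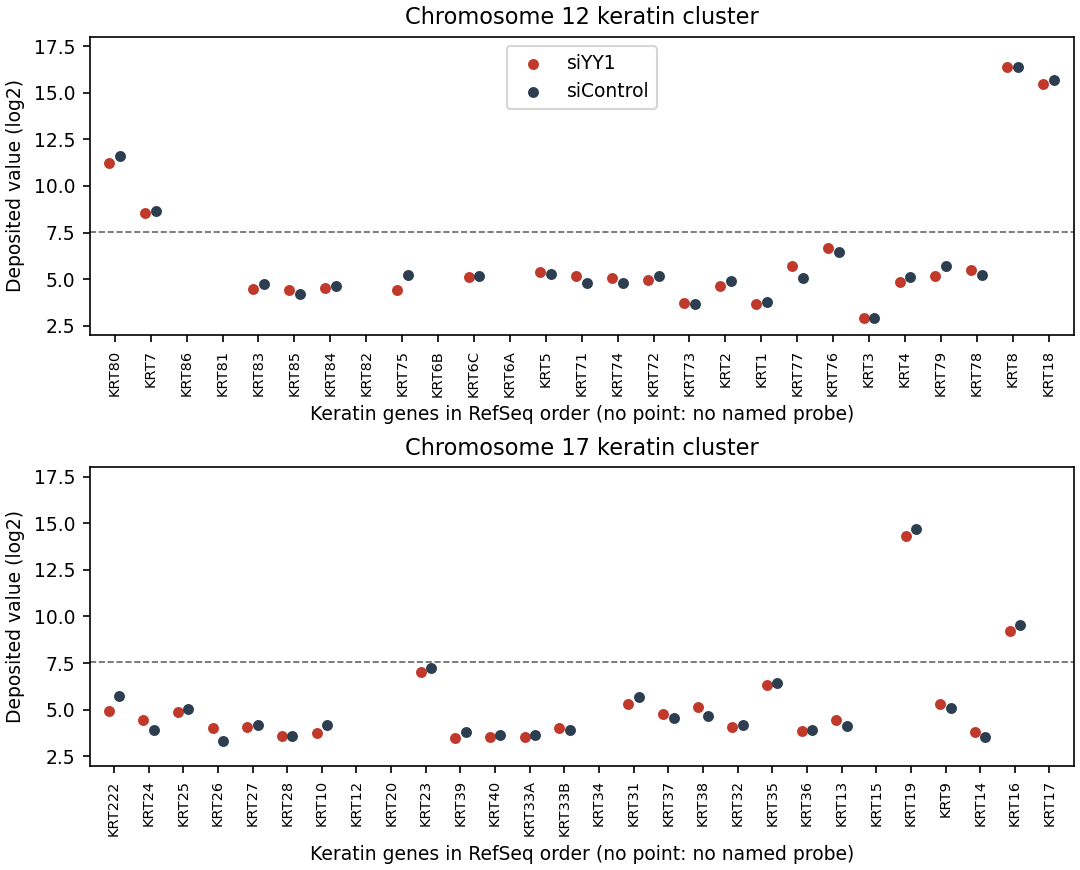
Deposited log2 values (vertical axes) of the keratin genes in the chromosome 12 and chromosome 17 clusters, in RefSeq order (horizontal axes), with siYY1 left of siControl at each gene and no point where no probe was named. Points above the dashed filter level of 7.54 lie at both ends of the chromosome 12 cluster, and at KRT19 and KRT16 in the chromosome 17 cluster.

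Most measured keratins of other epithelia were dim, with KRT16 and KRT7, the keratin of ducts and glands, among the exceptions. Of 10 measured hair and skin keratins in a list that did not hold KRT16, among them KRT1, KRT5 and KRT14, 0 passed the filter, and their median value was 4.76 in siYY1 and 4.85 in siControl. Of 18 squamous and cornified envelope genes, 1 passed, the cornifelin gene CNFN at 8.39 on both arrays. The measured fibroblast markers passed in 1 of 8, COL1A2 (9.05 in siYY1, 8.60 in siControl). Of 8 leukocyte markers, CD68 (7.64 in siYY1, 8.72 in siControl) and CD79A (7.77 in siYY1, 7.72 in siControl) passed, and 0 of 6 endothelial markers did. The part of these markers in the keratin values was not tested.

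Genes that work with keratins were counted against all genes kept, of which 3.78% were at least 1.5-fold lower in siYY1, 3.04% at least 1.5-fold higher and 6.82% past this size in either direction. Of 12 kept genes for proteins that bind keratin filaments, 1 was lower by this size and 0 higher, with a median difference of 0.03. This was EPPK1, epiplakin, a plakin that binds keratin networks, at 7.90 in siYY1 and 8.71 in siControl (difference -0.81). EVPL, envoplakin, a plakin of the cornified envelope, had the highest difference among the kept genes of that list, at 8.54 in siYY1 and 8.40 in siControl. DSP, desmoplakin, which anchors keratins to desmosomes, was at 14.31 in siYY1 and 14.29 in siControl. PLEC, plectin, which links keratins to hemidesmosomes, was at 11.22 in siYY1 and 11.18 in siControl. DST, dystonin, another plakin of hemidesmosomes, was at 10.93 in siYY1 and 11.41 in siControl (difference -0.49). DSP, PLEC, DST, PPL and PKP3 were named after their values were seen.

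Other intermediate filament genes were mostly dim, with 2 of 14 kept and 0 past 1.5-fold. The lamin genes LMNA (14.23 in siYY1, 14.38 in siControl) and LMNB1 (13.14 in siYY1, 12.99 in siControl) form the nuclear lamina and differed in opposite directions. Of 11 kept genes for enzymes and adaptors that modify keratins, 0 were past 1.5-fold, where a share of 6.82% over all genes kept would give fewer than 1, and the median difference was 0.02. The ends of that list were the protein kinase A subunit gene PRKACA, at 11.61 in siYY1 and 12.04 in siControl, and the phosphatase gene PTP4A3, at 9.82 in siYY1 and 9.54 in siControl.

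Among 22 kept genes for transcription factors known to act on keratin genes, 3 were at least 1.5-fold lower in siYY1 (3.78% of all genes kept) and 0 higher (3.04%), with a median difference of 0.00. The AP-1 subunit gene FOSL1 was at 11.71 in siYY1 and 12.67 in siControl (difference -0.96). The AP-1 subunit gene JUND was at 7.55 in siYY1 and 8.48 in siControl (difference -0.93), and the epithelial repressor gene OVOL2 at 9.66 in siYY1 and 10.27 in siControl (difference -0.61). OVOL2 fell short of 1.5-fold after quantile normalization (-0.58). The AP-2 gene TFAP2C had the highest difference of the kept genes, at 8.13 in siYY1 and 7.67 in siControl. CDX2, which is known to act on KRT20, differed by 0.16.

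Some other markers of simple epithelium were past 1.5-fold. Of 10 kept markers, 3 were at least 1.5-fold lower in siYY1 (3.78% of all genes kept) and 0 higher (3.04%), with a median difference of -0.11. The tetraspanin gene TSPAN8 was 3.36-fold lower (8.44 in siYY1, 10.19 in siControl). The claudin gene CLDN4 was 2.82-fold lower (10.86 in siYY1, 12.36 in siControl), and the carcinoembryonic antigen gene CEACAM5 2.60-fold lower (12.42 in siYY1, 13.80 in siControl). EPCAM had the highest difference of the kept markers, 0.19. These genes were in the list with their values known, so the contrast with the keratins is a description. Of the reference genes, ACTB was at 13.85 in siYY1 and 13.74 in siControl, and GAPDH at 17.28 in siYY1 and 17.30 in siControl.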

How the data were processed

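The authors deposited 1 summarized log2 value for each of 21448 probe sets (probes below) on 2 arrays. The unit was read from the values, which ran from 2.32 to 17.97 in siYY1 and from 2.46 to 17.90 in siControl. The method of summary and normalization and the log base were not given in the sources used here. Sorted by size, the deposited values of both arrays lay within 0.153 of each other, and in such nearly equal distributions a shift of most genes would not show. Folds take the values as plain log2. Per the labels' protocols, fragmented sense cDNA was labelled with biotin. Groups follow the sample titles.

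Probes were named through GEO's platform annotation and RefSeq identifiers of GRCh38.p14. Of the probes, 3739 had no gene symbol in the table used. Probes of 1 gene were averaged (20 genes). Genes were kept when their mean reached 7.54. A size of 1.5-fold stood in for a test. The members and lists were chosen with earlier results of these data known. All 7 measured members were named, and from each list up to 3 kept genes past 1.5-fold at each end, or the most extreme gene where none was. Only the 1.5-fold rule and the quantile normalization step were tested on simulated data. The noise in those data was set by hand and not taken from these arrays. Alternatives were quantile normalization, median and lowess centring (fraction 0.3), thresholds of 0.32 on the log2 scale and 2-fold, other filters, and the brightest probe of each gene. Python 3.11.15, numpy 2.4.6, pandas 2.3.3, statsmodels 0.14.6 and matplotlib 3.10.9 were used.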

Additional observations from a re-analysis of the deposited data

How the results depend on the processing

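No replicate was available to leave out, and no paired analysis was possible because each group had 1 array and no test was made. Under quantile normalization, median centring, lowess centring and the brightest probe, 0 of the 7 keratins reached 1.5-fold. The brightest probe could not change their values, because each of the 7 had 1 probe. Quantile normalization and median centring had little to change. The sorted values of the arrays lay within 0.153 of each other, and the median difference over the genes kept was 0.003. Across all the settings named, the difference of KRT8 ran from -0.01 to 0.01 and so changed sign. The differences of KRT80 (-0.36 in each), KRT19 (-0.36 to -0.34), KRT18 (-0.21 to -0.20) and KRT7 (-0.15 to -0.14) kept their sign. At a threshold of 0.32 (log2), 3 of the 7 and 3 of the kept keratin family were past the threshold, as were 25.7% of all genes kept (0.95% at 2-fold). Without the filter, 4 of the 45 keratins of the family were past 1.5-fold, none of them among the 7. This is close to the background, as 1394 of all 17687 named genes (7.88%) were past 1.5-fold in that setting. Over the other lists, 7 genes were past the threshold in the main setting, beside 6.82% of all genes kept. After quantile normalization, which took OVOL2 to -0.58, there were 6 (6.87% of all genes kept). At 0.32 there were 14 (25.7%), and at 2-fold 3 (0.95%). Without the filter there were 17 (7.88% of all named genes). With the filter at the upper quartile there were 3 (4.61% of the genes kept there). The number of list genes counted changes with the filter. KRT8 and KRT18 remained at or above a bound of 15, which made 2 of the 3 bright keratins. Values near the top of the scale and under the filter have differences of uncertain size.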
